A study of Mus musculus with 778 samples.

Results

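The genes described here are 9 oocyte genes of 3 families that have expanded in rodents: the oogenesins Oog1, Oog2, Oog3 and Oog4, the secreted oocyte protein gene Oosp1, and the oligoadenylate synthetase genes Oas1c, Oas1d, Oas1e and Oas1h. They were taken by name from a single-cell RNA-seq table of 23201 genes, and all 9 were present. The table held 223 mouse oocytes, all from wild type ICR females (an outbred strain). Their ovaries were digested with enzymes, and the oocytes were sorted by diameter, washed to remove somatic cells and picked by hand. NGO were non-growing oocytes under 20 µm from females of 3 to 4 days (46 cells). Growing oocytes of 30 to 45 µm (GO1, 51 cells), 50 to 55 µm (GO2, 26 cells) and 60 to 65 µm (GO3, 44 cells) and fully-grown oocytes over 70 µm (FGO, 56 cells) came from females of 3 to 4 weeks, so the NGO stage and the age of the female cannot be told apart. The number of females behind each stage was not given in the sources used here.

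Every value below is a number of unique molecular identifiers (UMIs, which count RNA molecules after amplification copies are removed), scaled to counts per 1000000 UMIs of the same cells (CPM). CPM is a share of the RNA counted and not an amount per oocyte. The cells were sequenced in 4 libraries, but no label tied a cell to a library or to an animal, so each stage is 1 pooled sample. No test between stages was therefore possible, and differences are given as ratios of stage sums with 95% counting intervals (which cover counting error only) together with the spread over cells. A gene is called higher or lower where the ratio was at least 2-fold and the higher stage reached at least 10 CPM.

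Stage sums ran from 24976634 UMIs at GO2 to 64311908 at FGO, and single cells from 22279 to 3898137 UMIs. The depth was most uneven at GO1, where the 10 deepest of 51 cells held 80.4% of the UMIs. The oocyte identity of the cells was checked on 10 oocyte markers, which together made up 1.35% to 2.60% of the UMIs of a stage and were detected at every stage. Their share was highest at NGO and lowest at GO1, and from NGO to GO1 5 of the 10 were called lower and 1 higher. The 8 granulosa cell markers summed to 14.01 to 42.7 CPM, highest at GO1, with Amh and Foxl2 at no more than 0.112 and 0.233 CPM and both granulosa markers tested from NGO to GO1 being called higher (Cyp19a1 and Nr5a2). The 7 stromal cell markers summed to 1.01 to 7.66 CPM, highest at NGO. The 6 blood and endothelial cell markers summed to 9.09 to 50.5 CPM, of which Pecam1 was 4.60 to 48.8 CPM, with both haemoglobin genes at 0. The 9 genes together had 4982 CPM at NGO and 10116 to 11563 CPM at the later stages. The part of these markers in the results was not tested.

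Oogenesins are leucine-rich repeat proteins of the PRAME family, a group of tandemly duplicated genes that are active mostly in germ cells, and Oog genes are known for expression in the oocyte and early embryo. OOSP proteins are small secreted proteins related to the placental protein PLAC1 and to a part of the zona pellucida proteins. OAS enzymes bind double-stranded RNA and make oligoadenylates that start RNA breakdown, a branch of the interferon response to viruses. The mouse has many Oas1 copies, several of which are expressed in the ovary, and OAS1D is known to lack synthetase activity.

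In the NCBIM37 (mm9) annotation the 4 Oas1 genes lay in 1 cluster on chromosome 5, in the order Oas1e (chr5:121236321-121245539), Oas1c (chr5:121250102-121262523), Oas1h (chr5:121311430-121323521) and Oas1d (chr5:121364354-121371661), within 135.3 kb. Oog4 (chr4:143027067-143040227), Oog3 (chr4:143747460-143752566) and Oog2 (chr4:143780622-143787534) spanned 760.5 kb of chromosome 4 among other PRAME family genes, and Oog3 and Oog2 were 28.1 kb apart. Oog1 lay apart from them (chr12:88943638-88949795), and Oosp1 (chr19:11741950-11765640) was 6.90 kb from Oosp2, which that annotation lists under the older name Plac1l. All 9 are annotated as protein-coding.

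The promoters of the 4 Oog genes, all of which were higher after the onset of growth, are shown with that of Oas1c, which belongs to a family known for interferon control. They come from RefSeq (GRCm38.p6), which held windows for 7 of the 9 genes, from 250 bases before to 50 bases after the annotated start. The windows are chr12:87602415-87602714 (plus strand) for Oog1, chr4:144190467-144190766 (plus strand) for Oog2, chr4:144162602-144162901 (minus strand) for Oog3, chr4:143450275-143450574 (minus strand) for Oog4 and chr5:120812465-120812764 (minus strand) for Oas1c. In the Oog promoters capitals mark the longest run of bases common to all 4 and the TATA box letters TATAAA where present. In the Oas1c promoter capitals mark 2 overlapping matches to the core of the interferon-stimulated response element.
Oog1: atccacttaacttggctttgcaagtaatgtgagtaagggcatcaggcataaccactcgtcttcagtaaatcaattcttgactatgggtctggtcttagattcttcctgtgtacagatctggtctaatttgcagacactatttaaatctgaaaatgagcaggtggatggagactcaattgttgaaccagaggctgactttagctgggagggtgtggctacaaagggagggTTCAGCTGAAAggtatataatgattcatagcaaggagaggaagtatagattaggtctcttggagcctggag
Oog2: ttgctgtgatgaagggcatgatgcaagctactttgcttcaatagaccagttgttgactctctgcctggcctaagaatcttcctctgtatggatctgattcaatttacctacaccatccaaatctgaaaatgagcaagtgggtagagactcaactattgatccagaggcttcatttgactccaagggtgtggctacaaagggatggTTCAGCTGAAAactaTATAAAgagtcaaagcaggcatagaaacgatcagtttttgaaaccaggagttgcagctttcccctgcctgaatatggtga
Oog3: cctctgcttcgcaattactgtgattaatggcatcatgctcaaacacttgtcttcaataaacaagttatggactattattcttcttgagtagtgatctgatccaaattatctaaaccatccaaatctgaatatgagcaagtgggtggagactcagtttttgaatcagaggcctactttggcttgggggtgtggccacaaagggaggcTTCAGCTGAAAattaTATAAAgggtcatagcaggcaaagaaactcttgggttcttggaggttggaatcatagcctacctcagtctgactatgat
Oog4: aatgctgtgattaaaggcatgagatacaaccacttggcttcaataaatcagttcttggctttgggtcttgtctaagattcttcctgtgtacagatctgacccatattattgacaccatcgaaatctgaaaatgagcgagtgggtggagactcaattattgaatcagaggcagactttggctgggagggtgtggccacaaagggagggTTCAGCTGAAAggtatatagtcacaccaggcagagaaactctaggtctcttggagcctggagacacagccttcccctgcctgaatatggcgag
Oas1c: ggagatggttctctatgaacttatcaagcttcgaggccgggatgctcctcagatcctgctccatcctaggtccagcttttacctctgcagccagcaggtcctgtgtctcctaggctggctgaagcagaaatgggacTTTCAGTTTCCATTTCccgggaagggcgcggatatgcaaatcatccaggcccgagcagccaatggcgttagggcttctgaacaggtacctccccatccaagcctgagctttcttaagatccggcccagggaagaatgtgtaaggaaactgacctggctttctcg

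The common run TTCAGCTGAAA (11 bases) began 45, 44 and 43 bases before the start in Oog2, Oog3 and Oog4 and 21 bases before it in Oog1. It was found because the 4 share it. On either strand it was present in 17 of 32851 promoters of the table (0.0517%), under 16 gene symbols. These symbols included Gm2042, Pramel23, Pramel26 and Pramel32 besides the 4 Oog genes. It contains the E-box letters CANNTG, which 6 of the 7 promoters held somewhere in the window, as did 72.3% of all promoters. TATAAA was present in Oog2 and Oog3 only (2 of 7, against 13.6% of all promoters), starting 30 and 29 bases before the start. Oog1 and Oog4 held the letters TATATA just after the common run, a form that was not counted over all promoters. The homeobox letters TAATTG, searched on both strands, were present in Oog3 and Oog4 (2 of 7, against 8.0%), and TAATTA in none of the 7 (5.29% of all). The interferon-stimulated response element core was present in Oas1c alone of the 7, against 3.44% of all promoters. The Oog promoters aligned with each other over 269 to 296 bases at 74.4% to 83.6% identity, with runs of 11 to 31 identical bases, whereas promoters of different families, or of Oas1c and Oas1h, shared runs of 7 to 12 bases. These matches are descriptions of the letters in the windows.

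How far the counts can tell the copies apart was examined on the protein-coding transcripts of the mm9 annotation. Non-coding copies, and reads that were trimmed or aligned with mismatches, were not covered. The coding sequences of the 4 Oog genes were 74.01% to 81.2% identical in pairs, and those of the 4 Oas1 genes 77.5% to 90.8%. Oas1d and Oas1e formed the closest pair by coding identity. Over whole transcripts, the longest identical runs were 23 to 63 bases in the Oog pairs and 48 to 86 bases in the Oas1 pairs. All these runs are shorter than the read length of 150 bases. No stretch of 150 bases in Oog3, Oog4, Oosp1 or the 4 Oas1 genes was found as an exact match in another gene's protein-coding transcripts. In Oog1, by contrast, 86.97% of such stretches were also in Gm10436, Gm13023 or Gm2042, and in Oog2 12.98% were also in Gm13084. Gm10436 and Gm13023 had 330% and 377% as many UMIs as Oog1 over all cells, and Gm13084 had 92.3% as many as Oog2. The Oog1 values are therefore uncertain and the Oog2 values partly so, since the alignment could have divided reads among the copies.

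Growth began with a higher share of oogenesin RNA. The summed level of the 4 Oog genes was 323 CPM at NGO and 3975, 4151, 4375 and 3665 CPM at GO1, GO2, GO3 and FGO. From NGO to GO1 all 4 Oog genes and Oosp1 were called higher (5 of 9 genes), against 20.6% of the 8527 genes tested, and none of the 9 lower, against 25.7% of all. None of the 4 Oas1 genes was called in that comparison with CPM, but with TMM factors Oas1h was called higher (6 of 9 genes in all), just past the limit at a log2 ratio of 1.01, and without the 10 deepest cells or in thinned cells Oas1c was called lower. The median log2 ratio was 2.57 for the 4 Oog genes and 0.48 for the 4 Oas1 genes, beside -0.15 over all genes tested. From NGO to FGO the 4 Oog genes were called higher (11.3% of 8132 genes) and none of the 9 lower (16% of all). Between consecutive stages after GO1 none of the 9 was called in either direction from stage sums. From GO1 to GO2, however, Oas1d and Oas1e were called higher by the mean over cells and Oas1c, Oas1d and Oas1e without the 10 deepest cells, and in cells thinned to 20000 UMIs Oas1c and Oas1d were called higher and Oog2 lower. From GO3 to FGO Oog1 was called lower in thinned cells. The backgrounds there were 0.109% higher and 3.03% lower from GO1 to GO2, 3.34% and 1.01% from GO2 to GO3, and 2.41% and 3.54% from GO3 to FGO. The share of all calls that were higher moved with the scaling in every comparison. With CPM, DESeq2 size factors and TMM factors it was 44.5%, 50.1% and 53.2% from NGO to GO1, so the majority turned, and 41.4%, 48.98% and 56.8% from NGO to FGO. It was 3.46%, 14.6% and 11.4% from GO1 to GO2, 76.8%, 59.2% and 66.8% from GO2 to GO3, and 40.5%, 32.02% and 32.6% from GO3 to FGO.

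Oog3 had the widest range of the 9 genes. At NGO the lowest, median and highest cell had 1.65, 78.4 and 262 CPM. At GO1 the corresponding values were 952, 2412 and 5067 CPM, at GO2 1658, 3301 and 6847 CPM, at GO3 1620.0, 3263 and 5164 CPM, and at FGO 581, 2827 and 4289 CPM. Every GO1 and every FGO oocyte thus lay above the highest NGO oocyte. These were the only 2 of 45 pairs of a gene and a comparison in which the cells of both stages did not overlap. The share of all genes tested that separate in this way was not computed. Oosp2 and Oosp3, outside the 9 genes, also separated from NGO to GO1. The stage sums gave 102.5 CPM at NGO (2583 UMIs) and 2783 CPM at GO1 (74458 UMIs), a 27.2-fold rise (95% interval 26.1 to 28.2), and FGO stood 26.7-fold above NGO (25.7 to 27.8). After GO1 the ratios of consecutive sums were 1.11, 1.05 and 0.842, all within 2-fold. The direction from GO2 to GO3 depended on the scaling (log2 ratio 0.07, and -0.08 with DESeq2 size factors).

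The other oogenesins shared the step at growth onset on a smaller scale. Oog4 had 21.8, 99.4 and 264 CPM in the lowest, median and highest NGO oocyte and 189.7, 456 and 1016 CPM at GO1, and 48 of 51 GO1 oocytes were above the highest NGO oocyte. Its sums were 118.9, 689.8, 647, 659 and 568 CPM from NGO to FGO, 5.80-fold higher at GO1 than at NGO (5.58 to 6.03). Oog4 therefore kept the level reached at GO1 to within 2-fold up to FGO.

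Oog2 had 7.96, 58.1 and 227 CPM in the lowest, median and highest NGO oocyte and 105.1, 334 and 966 CPM at GO1. Of the 51 GO1 oocytes, 35 exceeded every NGO oocyte. Its sums were 68.02, 295, 216, 312 and 261.4 CPM, 4.34-fold higher at GO1 than at NGO (4.12 to 4.57). The sum of Oog2 was lower at GO2 than at both neighbouring stages, with a ratio of 0.732 from GO1 to GO2 (0.707 to 0.758) and 1.44 from GO2 to GO3 (1.40 to 1.49), both under 2-fold and with overlapping cells. In thinned cells its log2 ratio from GO1 to GO2 was -1.07, past the limit.

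As counted, Oog1 had the lowest sum of the 9 genes at every stage. Its reads could have been divided among near copies with higher counts, so this rank is uncertain. In NGO oocytes Oog1 had 0, 19.8 and 70.6 CPM (lowest, median and highest) with a UMI in 43 of 46 cells. At GO1 it had 31.7, 166 and 342 CPM, and at FGO 14.7, 77.2 and 167 CPM. With every cell thinned to 20000 UMIs, it was found in 16 of 46 NGO oocytes (34.8%, exact binomial interval 21.4% to 50.2%), 48 of 51 GO1 oocytes and 39 of 56 FGO oocytes. The sums were 33.8, 207, 193, 153.2 and 98.5 CPM, a 6.11-fold rise from NGO to GO1 (5.68 to 6.58), and FGO remained 2.91-fold above NGO (2.71 to 3.13). From GO3 to FGO the ratio was 0.643 (0.622 to 0.665), and 22 of 56 FGO oocytes were below every GO3 oocyte. In thinned cells this log2 ratio was -1.14, past the limit. The near copies Gm10436 (91.9, 616, 627, 504 and 364 CPM) and Gm13023 (91.6, 778, 665, 544 and 437 CPM) were likewise lowest at NGO and lower at FGO than at the 3 growing stages.

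**Figure D1:**
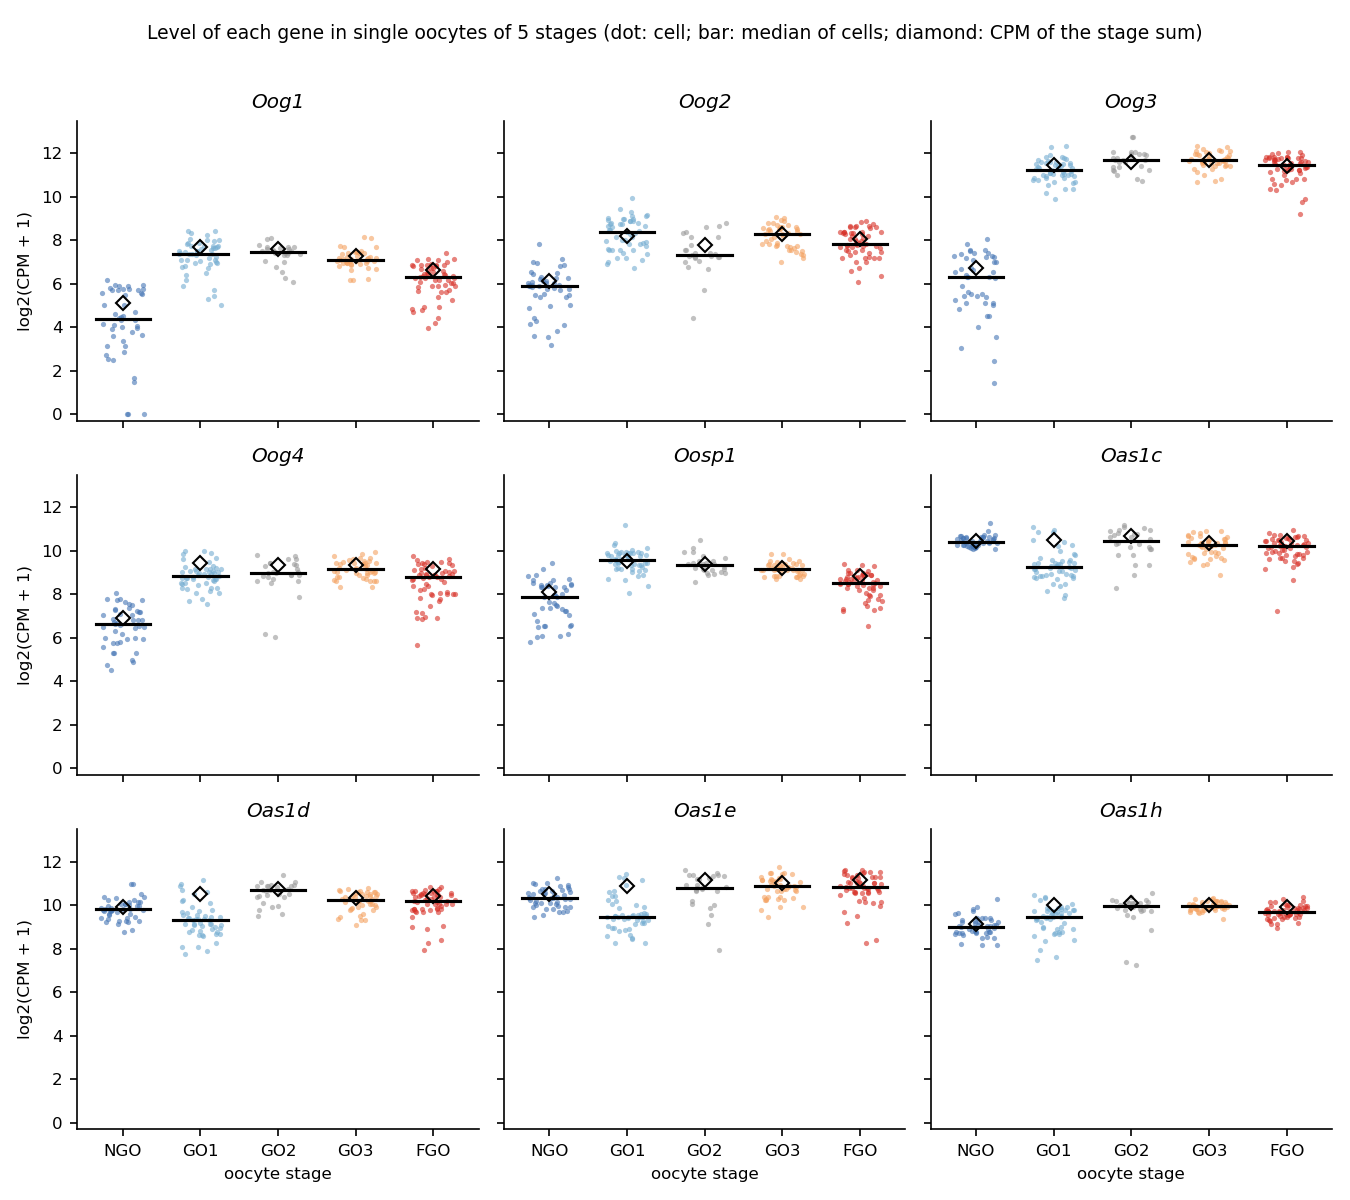
Level of each of the 9 genes in single oocytes, as log2(CPM + 1) on the vertical axis, by stage (46 NGO, 51 GO1, 26 GO2, 44 GO3 and 56 FGO cells). Dots are cells, bars the median of cells and diamonds the level of the stage sum. All GO1 dots of Oog3 lie above all NGO dots, and the GO1 diamonds of Oas1c, Oas1d and Oas1e lie above the GO1 bars.

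The proportions among the oogenesins changed with this step. Oog3 made up 31.7% of the Oog UMIs at NGO and 70.0%, 74.6%, 74.3% and 74.7% at GO1, GO2, GO3 and FGO. These shares and the order below take the Oog1 and Oog2 counts as given, although reads could have been divided among near copies. The NGO sums were 118.9 CPM for Oog4, 102.5 for Oog3, 68.02 for Oog2 and 33.8 for Oog1. At FGO they were 2738 CPM for Oog3, 568 for Oog4, 261.4 for Oog2 and 98.5 for Oog1. Oog3 thus moved from the second place in this order to the first. At NGO the cells of Oog3 and Oog4 overlapped widely, so their order there is not beyond the spread over cells.

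Oosp1 had 54.5, 236 and 703 CPM in the lowest, median and highest NGO oocyte, 269, 773 and 2369.6 CPM at GO1, and 93.02, 371 and 668 CPM at FGO. Of the 51 GO1 oocytes, 29 were above every NGO oocyte. The stage sums were 274, 734, 672, 593 and 456 CPM, so the sum was 2.68-fold higher at GO1 than at NGO (2.60 to 2.75) and lower at each later stage than at the one before. The later ratios were each within 2-fold (0.915, 0.882 and 0.769), and 36 of 56 FGO oocytes were below every GO3 oocyte. The direction from GO1 to GO2 was not the same under every scaling (log2 ratio -0.13, and 0.07 with DESeq2 size factors). FGO stood 1.66-fold above NGO (1.62 to 1.71), under the 2-fold limit.

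The relatives of Oosp1 were examined from a list of 4 genes, of which 3 were in the table. Oosp2 had 199.7 CPM at NGO, 1042 at GO1 and 603 at FGO, and Oosp3 had 67.4, 1212 and 458 CPM at the same stages. Both rose from NGO to GO1, Oosp2 5.22-fold (5.07 to 5.38) and Oosp3 17.99-fold (17.1 to 18.9), and in both all 51 GO1 oocytes exceeded every NGO oocyte. Both had their highest sum at GO1, as Oosp1 did. Plac1, expressed mainly in the placenta, had 9.64 CPM at NGO and 0.622 CPM at FGO and did not reach the minimum for a call.

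The 4 oocyte Oas1 genes were already abundant before growth. Their summed level was 4384 CPM at NGO, against 323 CPM for the 4 Oog genes, and 5783, 6740, 5743 and 5995 CPM at GO1, GO2, GO3 and FGO. Every one of them was found in all 223 oocytes. No comparison of stage sums reached 2-fold for any of the 4 genes. At GO1 the values depended on how the oocytes were averaged, since the deep cells that dominate the sum had higher Oas1 levels than the shallow ones.

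Oas1c had 1094, 1363 and 2459 CPM in the lowest, median and highest NGO oocyte but 230.4, 608 and 2157 CPM at GO1, and 43 of 51 GO1 oocytes were below every NGO oocyte. At GO2 the corresponding values were 316, 1415 and 2328 CPM, at GO3 476, 1217 and 1937 CPM, and at FGO 150.4, 1178 and 1983 CPM. The sums were nevertheless alike, with 1415 CPM at NGO, 1454 at GO1, 1661 at GO2, 1332 at GO3 and 1386 at FGO. The ratio of GO1 to NGO was 1.03 from sums (1.01 to 1.04) and 0.525 from the mean over cells (740.4 ± 449 CPM, SD, n = 51 cells, against 1409.6 ± 251 CPM, n = 46 cells). The log2 ratio of GO1 over NGO was -1.18 without the 10 deepest cells and -1.02 in thinned cells, both past the limit. From GO1 to GO2 the ratio was 1.14 from sums and 1.90 from the mean over cells.

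Oas1e had the highest sum of the 4 at every stage. Its lowest, median and highest NGO oocytes had 705, 1295 and 2422 CPM. The corresponding values were 301, 711 and 2783 CPM at GO1 and 301, 1836 and 3175 CPM at FGO. Its sums were 1439, 1869, 2272, 2093 and 2282 CPM, and FGO stood 1.59-fold above NGO (1.57 to 1.60). From NGO to GO1 the ratio was 1.30 from sums and 0.667 from the mean over cells, and from GO1 to GO2 it was 1.22 and 2.05. Of the 51 GO1 oocytes, 22 were below every NGO oocyte and 3 above all of them.

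Oas1d had 441, 895 and 2018 CPM in the lowest, median and highest NGO oocyte, 216, 631 and 2309 CPM at GO1, 725, 1638 and 2670.4 CPM at GO2 and 244, 1164 and 1834 CPM at FGO. Its sums were 967, 1444, 1727, 1291 and 1371 CPM. The ratio of GO1 to NGO was 1.49 from sums (1.47 to 1.52) and 0.786 from the mean over cells, and that of GO2 to GO1 was 1.20 and 2.11. Of the 51 GO1 oocytes 12 were below and 2 above every NGO oocyte.

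Oas1h was the one Oas1 gene of the 4 with the same direction from NGO to GO1 in sums and in the mean over cells (ratios 1.80 and 1.29), and with TMM factors its log2 ratio of 1.01 passed the 2-fold limit. Its lowest, median and highest cells had 285, 516 and 1260.3 CPM at NGO, 179.5, 701 and 1435 CPM at GO1, and 489, 832 and 1328 CPM at FGO. The sums were 564, 1016, 1080.0, 1026 and 956 CPM, with FGO 1.70-fold above NGO (1.67 to 1.73). At GO3 its spread over cells was the narrowest in proportion of the 4 genes (1001 ± 132.4 CPM, SD, n = 44 cells).

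**Figure D2:**
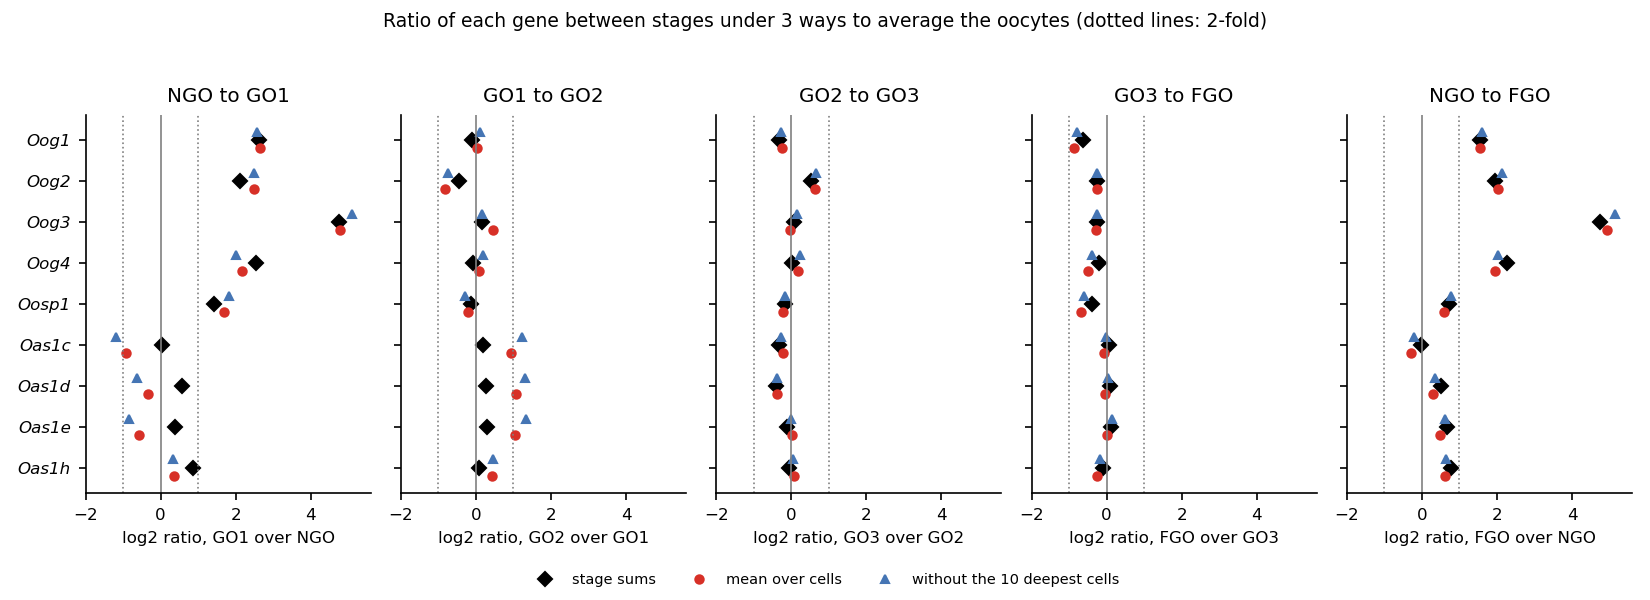
Log2 ratios of the 9 genes in 5 comparisons of stages, from stage sums (black diamonds, with 95% counting intervals narrower than the symbols), from the mean over cells (red circles) and without the 10 deepest cells of each stage (blue triangles). Dotted lines mark 2-fold. From NGO to GO1 the 3 ways agree in direction for the Oog genes, Oosp1 and Oas1h and disagree for Oas1c, Oas1d and Oas1e.

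The link between depth and Oas1 level at GO1 was then described directly. The depth of GO1 cells had its widest gap (on a log scale, above the median cell) between 782536 and 2380942 UMIs, a split made after the depths were seen. The 6 cells above the gap held 70.9% of the GO1 UMIs. Their lowest, median and highest Oas1c levels were 1204, 1874 and 2157 CPM, against 230.4, 581 and 1354 CPM in the 45 cells below it. For Oas1e the values were 1628, 2369 and 2783 CPM above the gap and 301, 705 and 1537 CPM below it, with no overlap. For Oas1d the medians were 1758 and 557 CPM, and for Oas1h 1125 and 689.99 CPM. The difference was not particular to the Oas1 genes, since the Oog4 medians were 764 and 436 CPM. Those of Oog1 were 206 and 165 CPM, of Oog3 2742 and 2207 CPM, of Oog2 231 and 346 CPM and of Oosp1 651 and 791 CPM. The RNA content of these cells and the yield of their libraries cannot be told apart here, and the part of depth in the Oas1 levels was not tested.

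Across the cells of a stage, Spearman's rho between depth and CPM was 0.31 to 0.47 for the 4 Oas1 genes at GO1 (51 cells), 0.44 to 0.76 at GO2 (26 cells), 0.18 to 0.46 at GO3 (44 cells) and 0.64 to 0.67 at FGO (56 cells). At NGO it was between -0.03 and 0.32 (46 cells). After thinning all cells to 20000 UMIs the FGO values were 0.45 to 0.62, and those at GO1 0.31 to 0.43. Other genes had values as high. Before thinning rho was 0.68, 0.63 and 0.73 for Oog4 at GO2, GO3 and FGO, 0.72 for Oog1 at GO2 and 0.72 for Oosp1 at FGO. Among oocyte markers it was 0.77 for the growth factor gene Gdf9 at GO2 and 0.60 for the zona pellucida gene Zp3 at GO1. These are descriptions over cells that share libraries, and depth is also the denominator of CPM.

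**Figure D3:**
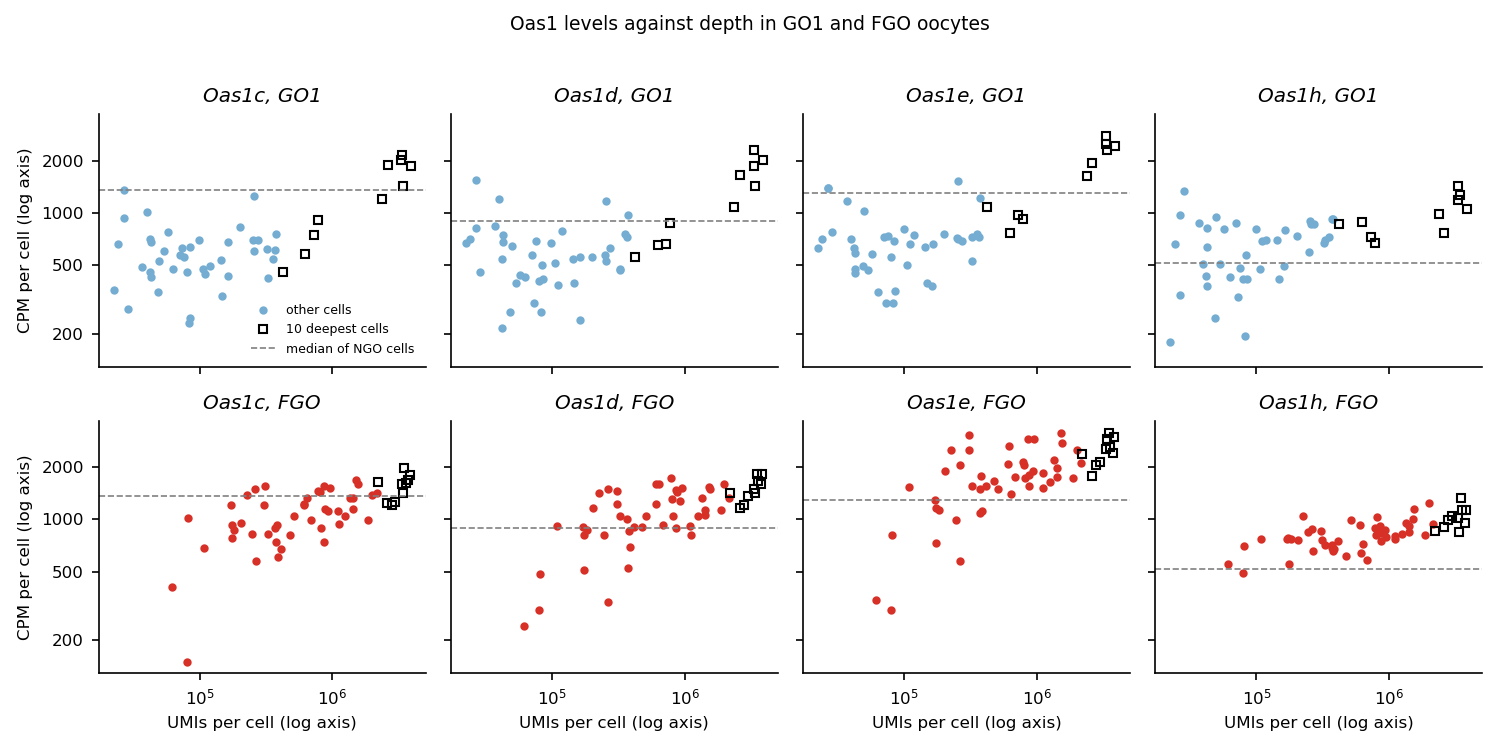
CPM per cell (vertical, log axis) against UMIs per cell (horizontal, log axis) for the 4 Oas1 genes in GO1 (top) and FGO oocytes (bottom). Squares are the 10 deepest cells of the stage, dots the other cells, and dashed lines the median of NGO cells. In GO1 the 6 cells with 2380942 UMIs or more have Oas1c and Oas1e levels at or above those of most other cells.

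Within stages the levels of the 4 Oas1 genes also went together over cells. In cells thinned to 20000 UMIs, the median rho over the 6 Oas1 pairs was 0.35 at NGO, 0.56 at GO1, 0.55 at GO2, 0.45 at GO3 and 0.50 at FGO. Over the 6 Oog pairs it was -0.14, 0.06, 0.12, -0.02 and 0.12 at the same stages. In thinned NGO cells Oog1 and Oog2 had means of only 0.478 and 1.09 UMIs, so weak values among the Oog genes say little. The rho of the Oas1 genes with depth in thinned cells was -0.07 to 0.35 at NGO and 0.45 to 0.62 at FGO. Pairs of other genes of like level were not examined, and the part of depth in the Oas1 pairs was not tested. Over the 16 pairs of an Oas1 and an Oog gene the median rho was between -0.05 (GO3) and 0.18 (GO1). Single pairs between the families reached -0.73 (Oog3 with Oas1e) and 0.68 (Oog4 with Oas1h), both at GO2. The highest Oas1 values were for Oas1d with Oas1e at GO1 (0.77) and Oas1c with Oas1e at GO3 (0.75), and the lowest for Oas1d with Oas1h at GO2 (0.01, 26 cells).

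The proportions among the Oas1 genes shifted from NGO to FGO, most for Oas1c. Oas1e made up 32.8% of their UMIs at NGO and 38.1% at FGO, Oas1c 32.3% and 23.1%, Oas1d 22.1% and 22.9%, and Oas1h 12.9% and 15.9%. The NGO order of the sums was Oas1e (1439 CPM), Oas1c (1415), Oas1d (967) and Oas1h (564). At FGO it was Oas1e (2282), Oas1c (1386), Oas1d (1371) and Oas1h (956), and the last 3 overlapped over cells.

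The other Oas genes were far lower. Of 8 listed, all were in the table, and together they had 20.9 CPM at NGO and 100.2 at GO1, against 4384 and 5783 CPM for the 4 oocyte Oas1 genes. Oas1f rose 42.6-fold from NGO (1.27 CPM) to GO1 (54.1 CPM; interval 30.1 to 62.5) and fell from 42.1 CPM at GO3 to 18.1 CPM at FGO (ratio 0.430, interval 0.400 to 0.462). Oas1b rose 6.83-fold (2.54 to 17.3 CPM) and Oas3 2.15-fold (10.6 to 22.9 CPM) from NGO to GO1. Oasl1 stayed between 5.42 and 7.83 CPM and Oasl2 between 0.0803 and 0.400 CPM. Oas2 and Oas1a had 3 and 4 UMIs and Oas1g 20 UMIs over all 223 cells. Oas1a and Oas1g were 95.1% identical in coding sequence, and their whole transcripts shared a run of 526 bases, so their reads cannot be assigned with certainty.

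**Figure D4:**
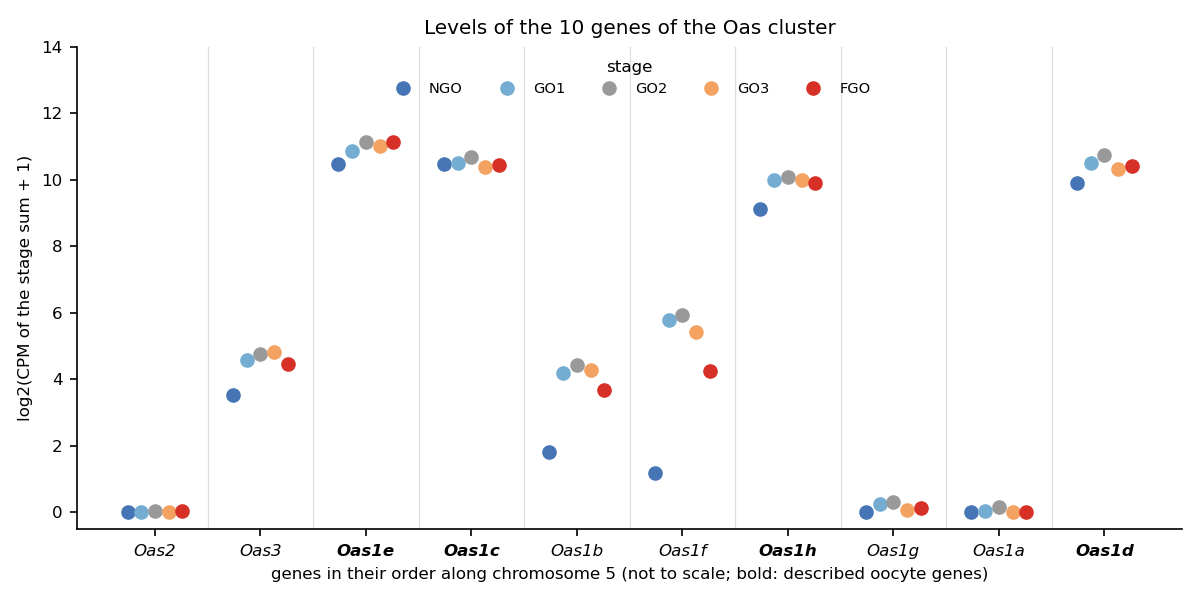
Level of the 10 genes of the Oas cluster, as log2(CPM of the stage sum + 1), in their order along chromosome 5, with 1 dot for each stage. Oas1e, Oas1c, Oas1h and Oas1d lie above 9 at every stage, while Oas1b and Oas1f, which sit between Oas1c and Oas1h, lie below 6 and Oas2, Oas1g and Oas1a near 0.

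The wider pathway was taken from a list of 29 genes for double-stranded RNA sensing and the interferon response. Of the 29 genes, 9 passed the 10 CPM minimum from NGO to GO1, of which 1 was called higher and 3 lower, close to the shares over all genes (20.6% and 25.7%), with a median log2 ratio of -0.41 beside -0.15 over all genes. The RNA sensor Ddx58 (RIG-I) rose 3.85-fold, from 7.98 to 30.7 CPM (interval 3.29 to 4.51). Irf3, a transcription factor of the interferon response, fell from 77.2 to 25.3 CPM (ratio 0.328, interval 0.300 to 0.358). Abce1, a ribosome recycling factor, fell from 30.1 to 9.49 CPM (ratio 0.315, interval 0.272 to 0.364), and the kinase Tyk2 from 12.1 to 3.74 CPM (0.310, interval 0.245 to 0.390). From NGO to FGO 1 gene of the list was called higher (Ddx58) and 2 lower (Abce1 and Tyk2) of 9 tested, beside 11.3% and 16% of all genes. The interferon-induced genes Isg15, Ifit1, Ifit2, Ifit3, Rsad2, Usp18 and Irf7 had at most 0.357 CPM at any stage. These genes are named although they fell outside the rule for named genes, after their values were seen.

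Of 13 other PRAME family genes listed, 3 passed the 10 CPM minimum from NGO to GO1 and none was called, with 20.6% of all genes called higher and 25.7% lower. The list did not hold the gene models Gm10436, Gm13023 and Gm13084, which share sequence with Oog1 or Oog2 and had 91.9, 91.6 and 50.7 CPM at NGO and 616, 778 and 303 CPM at GO1. Pramef12 had 80.9, 112.997, 72.6, 67.5 and 64.9 CPM from NGO to FGO, Pramef20 33.3, 62.6, 61.1, 52.5 and 45.96 CPM, and Pramef8 15.04, 9.42, 6.49, 10.3 and 9.24 CPM. The other 10 were at or below 0.120 CPM at every stage, and Prame, Pramel1, Pramel3 and Pramel6 had no UMI in any cell. With 0 UMIs the limit of 3 UMIs allows up to 0.119 CPM at NGO and 0.0466 CPM at FGO.

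For each of the 9 genes, the 3 most similar of 8671 genes were found by the root mean square difference of log2(CPM + 1) over the 5 stage sums, each centred on its own mean. Oog2 was closest to Nlrp4a (0.0447) and Oog4 to Gm13084 (0.0737), which shares sequence with Oog2. Oog1 was closest to Trappc3l, Diras2 and Tcl1b5 (0.0603 to 0.0672), and Oog3 to Gm17830, BC100530 and Nlrp9c (0.182 to 0.318), the largest distances of the 9 genes. Oog2 was followed by 1700034K08Rik and 1700048O20Rik (0.0961 and 0.108), and Oog4 by Ppp1r14b and Gm13103 (0.0880 and 0.0920). Oosp1 was closest to Armc10, Zfp957 and Srek1ip1 (0.00980 to 0.0256). Among the Oas1 genes, Oas1c was closest to Psmc5, Ddx39 and Tbc1d19 (0.0301 to 0.0331), Oas1d to Ppa1, 1500011B03Rik and Ncapg (0.0387 to 0.0528), Oas1e to Mtif3, Bcl7b and Jagn1 (0.0374 to 0.0426) and Oas1h to Manf, Cers5 and Dip2b (0.0169 to 0.0315). Only 4 of these 27 genes were again among the 3 most similar when the mean over cells replaced the sum (Gm17830 for Oog3, Ppp1r14b for Oog4, and Mtif3 and Bcl7b for Oas1e). Among the 9 genes themselves, the most alike were Oas1d and Oas1e (0.149) and the least alike Oog3 and Oas1c (1.92).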

How the data were processed

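Per the labels and the methods of the study, the authors sorted reads by cell barcode, aligned them to the mm9 mouse transcriptome with Tophat, removed copies by UMI, and kept cells by detected genes, transcript number and spike-in share. The deposited table holds raw UMI counts per gene and cell (223 cells, 4 libraries, no map from cell to library). The strand setting was not given in the sources used here. From these counts, UMIs were summed per stage and scaled to CPM. Intervals were exact (Poisson for levels, binomial for ratios). A gene was tested where it reached 10 CPM in either stage, and called at 2-fold. The rule was tested on simulated counts that had counting error only. They had no spread over cells and no uneven depth, so that test does not cover the effect of either on the calls. Named genes were the 9 members, detected genes of the Oosp, Oas and PRAME lists, up to 3 called genes in each direction of the interferon list, and the 3 most similar genes per member. The members and lists were chosen with earlier results of these data known. Scaling alternatives used DESeq2 1.42.0 and edgeR 4.0.16, and sequence alignments Biopython 1.88. Chromatin data of the same series were not used here. 1 gene of the interferon list is not reported here.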

Additional observations from a re-analysis of the deposited data

How the results depend on the processing

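The 5 calls from NGO to GO1 and the 4 from NGO to FGO were counted again with DESeq2 size factors, TMM factors, the mean over cells, no 10 deepest cells, equal numbers of cells, cells thinned to 20000 UMIs, no minimum, a minimum of 50 CPM and a 1.5-fold limit. The counts stayed within 1.5 times of the values reported except where given here. Without the 10 deepest cells, 1 gene (Oas1c) was lower at GO1 than at NGO and 3 (Oas1c, Oas1d and Oas1e) were higher at GO2 than at GO1. With thinned cells 1 gene was lower at GO1 than at NGO, 2 were higher and 1 lower at GO2 than at GO1, and 1 was lower at FGO than at GO3. With TMM factors 6 genes, Oas1h included, were higher at GO1 than at NGO. With the mean over cells 2 were higher at GO2 than at GO1. With the 1.5-fold limit 1 gene was lower at FGO than at GO3 and 7 were higher at FGO than at NGO. The log2 ratio of GO1 over NGO ran from -1.18 to 0.20 for Oas1c, from -0.64 to 0.74 for Oas1d and from -0.86 to 0.54 for Oas1e, lowest without the 10 deepest cells and highest with TMM factors, and for Oog3 from 4.50 to 5.10. The cause of these differences was not tested. Over all genes, the median log2 ratio of GO1 over NGO was -0.15 with CPM, 0.05 with TMM factors and -0.45 without the 10 deepest cells. The genes called lower at GO2 than at GO1 numbered 223 with CPM, 82 with DESeq2 size factors and 1202 in thinned cells. No paired analysis was possible because each stage is 1 pooled sample without replicate numbers. The 10 deepest GO1 cells held 80.4% of the UMIs of that stage, which limits its sums.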

Other observations

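The 4 abundant oocyte Oas1 genes were not neighbours of each other throughout the cluster on chromosome 5. Oas1b and Oas1f, at 20.7 CPM or less and 60.3 CPM or less in every stage sum, lay between Oas1c and Oas1h, and Oas1g and Oas1a, at 0.240 CPM or less, lay between Oas1h and Oas1d. The annotated starts of Oas1c and Oas1b, on opposite strands, were 0.120 kb apart. At NGO the Oas1c sum was 1415 CPM and the Oas1b sum 2.54 CPM. Oas1f shared runs of up to 83 bases with Oas1c, and its 42.6-fold higher sum at GO1 than at NGO went with a 1.03-fold ratio for Oas1c.

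In the 6 deepest GO1 oocytes Oosp2 and Oosp3 had medians of 804 and 985 CPM, against 1770.0 and 1639 CPM in the other 45, the opposite order from the Oas1 genes in the same cells. The cause was not tested.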
